A study of Mus musculus with 18 samples.

Results

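The 9 apolipoproteins and lipid transport genes described here are Apoe, Apod, Clu, Abca1, Abcg1, Lcat, Lrp1, Lrp8 and Vldlr. They were chosen by gene symbol, with earlier results of these data known, and are 9 of the 55291 symbols of the study's count tables. All 9 were counted in every one of the 18 libraries, with at least 98 reads each. The study used kainic acid in mice to model epilepsy of the mesial temporal lobe. Male C57BL/6J mice, 6 weeks old, received AAVDJ-GfaABC1D-EGFP-Rpl10a in the right CA3, so that in all 3 groups EGFP marked a protein of the ribosome under GfaABC1D, a promoter used to drive expression in astrocytes. The AAV control group had no further injection and gave RNA 2 weeks after the AAV. The KA group received kainic acid, a glutamate receptor agonist that provokes seizures, in the right dentate gyrus 2 weeks after the AAV and gave RNA 14 days later. The PBS group received PBS in place of kainic acid. KA and AAV control therefore also differ in the time after the AAV and in the second injection. In their comparison these cannot be told apart from kainic acid. Each sample pooled the right hippocampi of 3 to 4 mice, and each homogenate gave an IP library (RNA bound to EGFP-tagged ribosomes, pulled down with an anti-GFP antibody) and an input library (RNA of the whole homogenate). There were 3 samples per group, numbered #1 to #3. The tag is made only in cells that took up the AAV and in which the promoter is active, and RNA of untagged cells may also be carried into the IP, which was not measured.

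Brain cells exchange cholesterol and phospholipid on small lipoprotein particles made locally, chiefly by astrocytes. ApoE and clusterin (Clu, also called apolipoprotein J) are the main protein shells of these particles, and apolipoprotein D (Apod) is a small lipocalin that carries lipids such as arachidonic acid. The transporters Abca1 and Abcg1 load cholesterol and phospholipid on the particles, Lcat esterifies the cholesterol they carry, and the receptors Lrp1, Lrp8 (ApoER2) and Vldlr, all of the LDL receptor family, take particles up or, for Lrp8 and Vldlr, pass on the signal of reelin. Abca1, Abcg1 and Apoe are known targets of the liver X receptors, which sense oxysterols.

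On GRCm38 (GENCODE M21 annotation), the genes lie at chr7:19696109-19699188 (Apoe, minus strand), chr16:31296192-31314808 (Apod, minus), chr14:65968483-65981547 (Clu, plus), chr4:53030787-53159895 (Abca1, minus), chr17:31057675-31117988 (Abcg1, plus), chr8:105939551-105943382 (Lcat, minus), chr10:127538161-127621148 (Lrp1, minus), chr4:107802261-107876840 (Lrp8, plus) and chr19:27216484-27254231 (Vldlr, plus). Lcat, Lrp1 and Lrp8 overlap annotated antisense genes (Gm16156, Gm16217, and Lrp8os1 with Lrp8os2) and Abcg1 overlaps an rRNA gene (Gm25447), and reads of these partners cannot be told apart from those of the named gene where the counting did not use the strand, which the sources do not state. Abca1, Apoe and Apod are the members that were higher in the KA input samples against both control groups, so the 250 bases before their transcription starts are shown, 5′ to 3′ on the gene's strand, from RefSeq on GRCm38.p6. The Abca1 window is chr4:53159896-53160145, the Apoe window is chr7:19699189-19699438 and the Apod window is chr16:31314809-31315058. Capitals mark a direct repeat of the letters GGTNA and GGTCA with 5 bases between them, on either strand, the kind of repeat that liver X receptors bind. These letters were set with the Abca1 window in view.
Abca1: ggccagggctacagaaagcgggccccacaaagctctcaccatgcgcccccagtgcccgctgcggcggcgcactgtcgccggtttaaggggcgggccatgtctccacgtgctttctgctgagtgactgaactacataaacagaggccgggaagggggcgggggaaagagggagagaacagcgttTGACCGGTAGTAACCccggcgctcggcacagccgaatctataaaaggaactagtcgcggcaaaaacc
Apoe: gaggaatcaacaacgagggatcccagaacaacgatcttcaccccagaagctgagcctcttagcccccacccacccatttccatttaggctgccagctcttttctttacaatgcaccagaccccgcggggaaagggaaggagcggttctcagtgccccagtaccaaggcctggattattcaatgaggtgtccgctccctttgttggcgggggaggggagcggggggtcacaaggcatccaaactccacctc
Apod: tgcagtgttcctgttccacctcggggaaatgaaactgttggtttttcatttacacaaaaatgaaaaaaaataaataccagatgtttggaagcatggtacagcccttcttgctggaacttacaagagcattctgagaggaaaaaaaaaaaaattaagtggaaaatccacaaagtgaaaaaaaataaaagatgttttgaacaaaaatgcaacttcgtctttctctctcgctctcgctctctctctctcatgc

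The repeat was found once among the members, in Abca1, at bases -67 to -53 from the start and on the strand opposite to the gene. The other 11 windows of members (7 members have at least 1 window, and Clu and Abcg1 have none in the table) do not hold these letters. Of all 32851 promoter windows of the same length, 58 (0.177%) hold the repeat. The letters were set with the Abca1 window in view, so its match was fixed beforehand. The share is no measure of how unusual that match is. The match is a description of the sequence alone.

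Library totals lay between 7991681 and 16032180 counts, with a median of 10313125. The IP libraries held more RNA of astrocyte markers than the input libraries (summed FPKM of 10 markers 2295 to 5140 against 288 to 866) and less of neuronal markers (329 to 2300 against 3674 to 6262). Sample #3 of the AAV control group stood apart from #1 and #2, with an oligodendrocyte marker sum of 1183 in IP against 274 and 363, and a choroid plexus marker sum of 16.2 in input against 2984 and 2117. Run 1 of the sequencer held #1 and #2 of KA and of AAV control, run 2 held #3 of both, and run 3 held all PBS samples, so that run and PBS group cannot be told apart. In the KA group the IP was less enriched for astrocyte markers than in the controls. The IP to input ratio of the 10 markers passed lower in KA for 7 against AAV control (median log2 change -1.34) and for 6 against PBS (-1.24). The ratio of neuronal markers passed higher for 8 and 5 of 10 (medians 1.41 and 0.92) and that of oligodendrocyte markers for 3 and 10 of 10 (1.78 and 1.98). Within IP, 5 astrocyte markers passed lower and 2 higher in KA against AAV control (median -0.74), and 4 lower and 2 higher against PBS (-0.32), although the marker sum was higher, since Gfap alone made 3377 to 4051 of 4690 to 5140 in KA IP and 566 to 843 of 2393 to 3200 in AAV control IP. No member is therefore given per unit of the astrocyte sum. Results that rest on AAV control #3 are given with and without it.

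The order of the members' levels, compared in FPKM, which is scaled to gene length and library total, began with Apoe and Clu in each of the 6 sets of libraries. Apoe had the highest count of any gene in 8 of the 9 IP libraries (Cst3, which encodes cystatin C, was first in KA IP #3) and in KA input #1 and #2. In the AAV control IP, mean FPKM was 29737 ± 2295 (SD, n = 3) for Apoe and 2515 ± 1844 for Clu, followed by Lcat at 248 ± 104, Apod at 99.1 ± 147, Lrp1 at 15.5 ± 2.51, Abca1 at 5.29 ± 0.788, Lrp8 at 4.19 ± 0.172, Vldlr at 3.40 ± 0.352 and Abcg1 at 1.67 ± 0.319. The ranges of neighbours in this order overlapped for Lcat and Apod and for Apod and Lrp1 and for no other neighbours. In the AAV control input, Apoe was at 2335 ± 1116 and Abca1 was last at 1.91 ± 0.164, with Lrp1, Vldlr and Abcg1 between 5.61 and 6.64 and overlapping from each to the next. In the KA IP, Apod took the third place with a mean of 845 ± 400, above Lcat at 97.4 ± 15.4 with no overlap. The 9 genes together took 4.87% to 8.62% of the counts of an IP library, 0.396% to 0.941% in AAV control input, 0.610% to 0.779% in PBS input and 1.82% to 3.12% in KA input. Apoe alone made up 77.0% to 93.0% of the members' reads in every library.

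**Figure D1:**
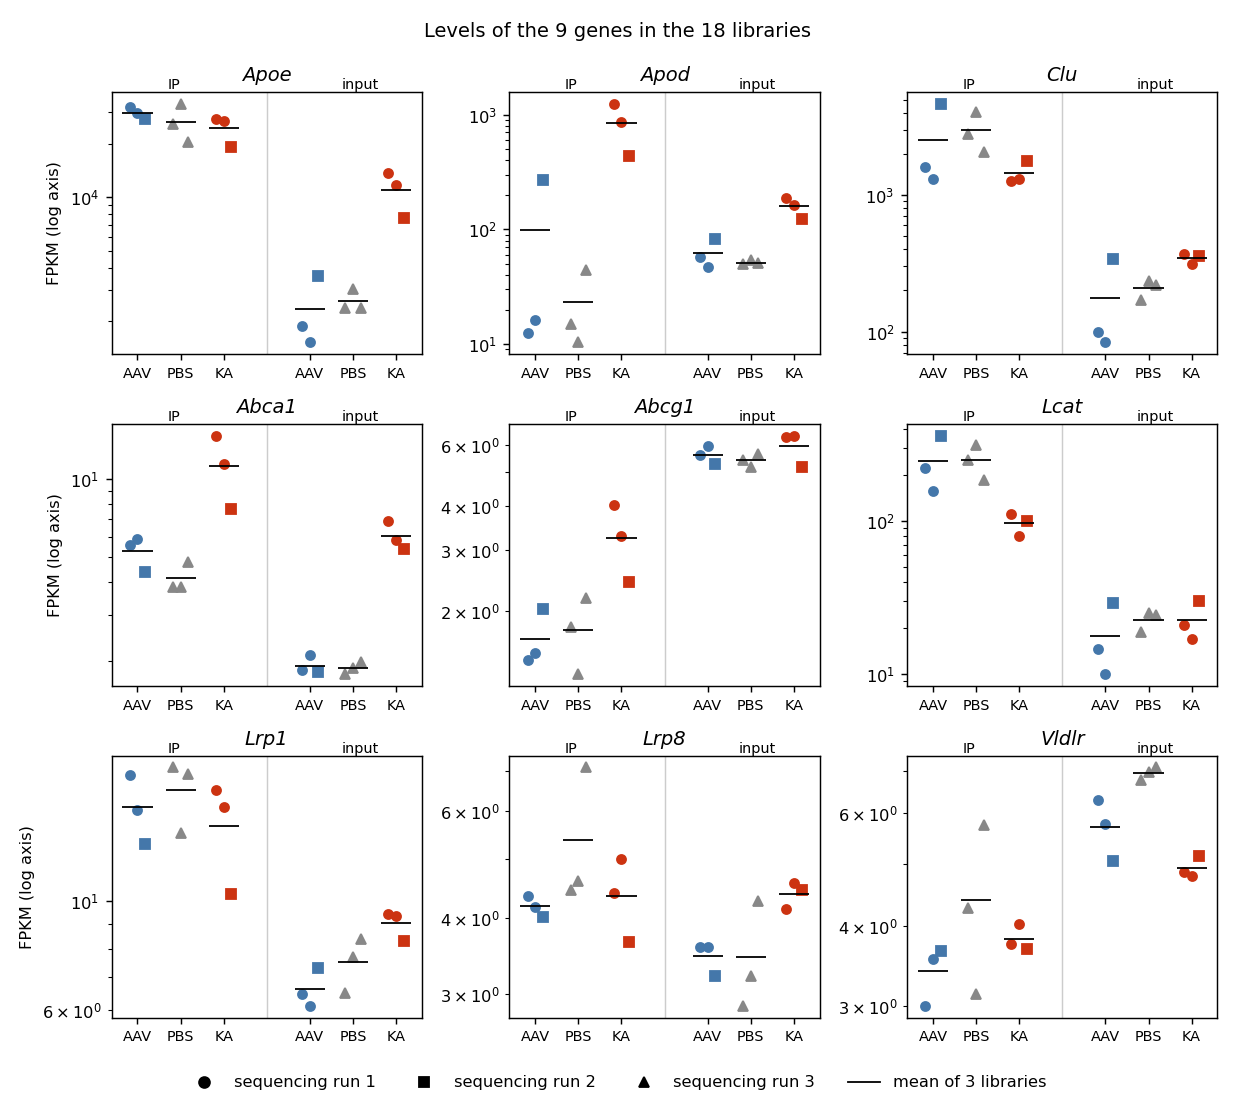
FPKM of each gene (log axis) in the AAV control, PBS and KA groups, IP libraries left and input libraries right in each panel. Each point is 1 library, its shape gives the sequencing run, and the bar is the mean of 3. Apoe lies above 19199 in every IP library and rises in the KA inputs, Abca1 is higher in KA in both kinds of library, and Lcat is lower in the KA IP.

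In IP libraries, 2 members were higher and 1 was lower in KA than in AAV control. The test was edgeR's quasi-likelihood test on counts over all genes with FPKM above 1 in each compared library, and a gene passed at a Benjamini-Hochberg adjusted p under 0.05. Abca1 and Abcg1 rose and Lcat fell. Over all 9729 genes tested, 10.4% were higher and 9.74% lower in KA. The members' median log2 fold change was 0.10, beside -0.02 over all genes tested. With the sample number as a block, Apod also passed, which made 4 members, beside 34.5% of all genes in either direction. Within run 1 alone, with 2 libraries per group, the log2 fold change was 6.25 for Apod, 1.25 for Abca1, 1.37 for Abcg1 and -0.93 for Lcat, and all 4 passed (46% of all genes), while run 2 had 1 library per group and allowed no test. Leaving out 1 library gave 1 to 4 members, with 1 (Abca1) without KA IP #1, KA IP #2 or AAV control IP #1, and 4 without AAV control IP #3 (33.8% of all genes).

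Against PBS, 3 members were higher in the KA IP (Apod, Abca1 and Abcg1) and 1 was lower (Lcat). Over all 9847 genes tested, 18.2% were higher and 18.9% lower, so the count of members is near that of all genes. The members' median was -0.17 and that of all genes -0.01. The KA group is the same in both comparisons, so they share 3 of their 6 libraries.

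In input libraries, 3 members were higher in KA than in AAV control (Apoe, Apod and Abca1) and none was lower in the edgeR test, in which 5 members had an unadjusted p under 0.05. Over all 10809 genes tested, 3.54% were higher and 0.944% lower. The members' median log2 fold change was 0.43 and that of all genes was -0.03. With the sample number as a block 4 passed, beside 10.2% of all genes in either direction. With the run as a covariate 6 passed (16% of all genes), and in the 4 libraries of run 1 alone 8 passed (41.6% of all genes), with Clu (log2 fold change 1.91), Lcat (0.64), Lrp1 (0.58) and Lrp8 (0.28) also higher and Vldlr (-0.32) lower. Without AAV control input #3 the count was 6 (23.8% of all genes), and without any 1 of the other 5 libraries it was 1 (Abca1).

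Against PBS, 4 members were higher in the KA input (Apoe, Apod, Clu and Abca1) and Vldlr was lower. Over all 10849 genes tested, 15.5% were higher and 12.2% lower, and the members' median was 0.35 beside 0.01 over all genes. The summed markers of the choroid plexus, the tissue of the ventricles that makes cerebrospinal fluid, moved with this comparison. The summed FPKM of its 5 markers was 4483, 3837 and 2488 in KA input against 18.8, 249.96 and 290.4 in PBS input and 2984, 2117 and 16.2 in AAV control input, so that it was higher in KA than in PBS and overlapped with AAV control. Only 1 of the 5 markers exceeded FPKM 1 in all 3 libraries of PBS input and of AAV control input, and 4 did in KA input. In KA input against PBS, 1 of the 5 was tested, and it passed higher (log2 fold change 4.31). The part of choroid plexus RNA in the input values of Apoe, Apod, Clu and Abca1 was not tested.

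Between PBS and AAV control, no member passed in IP, where 0% of 10667 genes were higher and 0% lower in the edgeR test, nor in input, where 0% of 10924 genes were higher and 0% lower. At an unadjusted p under 0.05 there were 1153 genes and 0 members in IP and 901 genes and 1 member (Vldlr) in input. DESeq2 and limma-voom also called 0 members in each. In input, 5 members were higher in PBS once AAV control input #3 was left out, a fit in which 36.5% of all genes were called in either direction, namely Apoe (log2 fold change 0.70), Clu (1.27), Lcat (0.98), Lrp1 (0.33) and Vldlr (0.28), with adjusted p-values of 1.116e-05 to 0.0225.

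**Figure D2:**
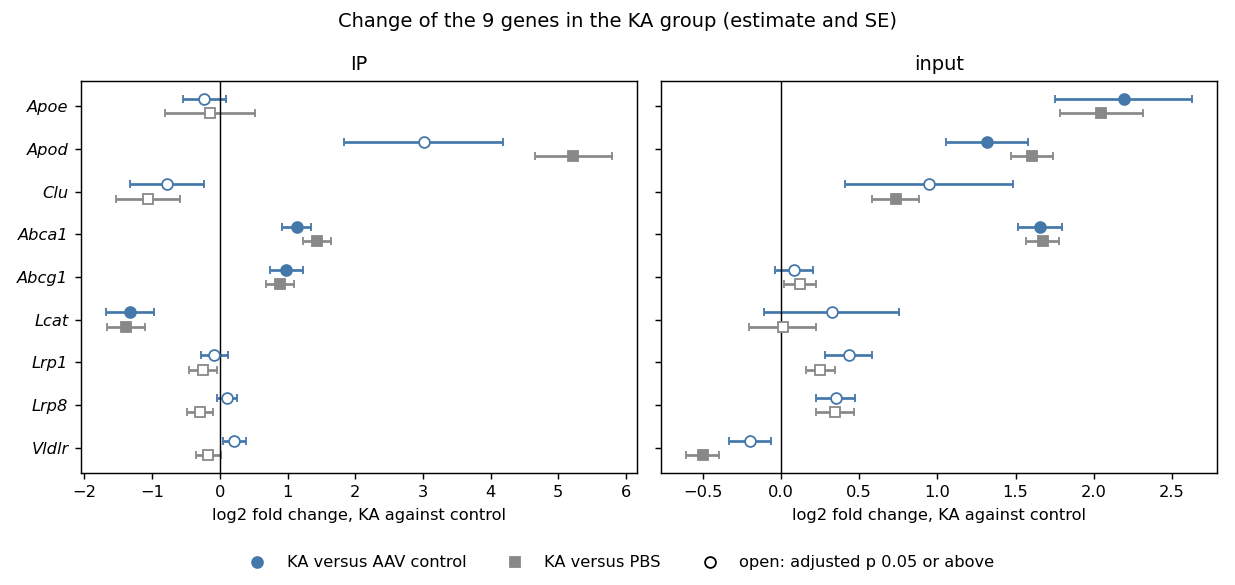
Log2 fold change of each gene in KA against AAV control (circles) and against PBS (squares), in IP (left) and input (right), with its SE as a bar. Filled symbols had an adjusted p under 0.05 by edgeR, and Apoe is filled in input and open in IP.

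Apoe was at a high level in the IP of every group and rose only in the input of the KA group. In IP, its FPKM was 32024.5, 29751.6 and 27433.6 in AAV control #1 to #3, 25658.8, 33433.6 and 20388.1 in PBS, and 27579.7, 26972.8 and 19199.2 in KA. The 3 groups overlapped, with the lowest value in KA #3. The log2 fold change in KA was -0.23 ± 0.32 (SE) against AAV control, with an adjusted p of 0.657, and -0.15 ± 0.66 against PBS, with an adjusted p of 0.879.

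In input, Apoe was at 1871, 1525 and 3608 in AAV control, 2381, 3043 and 2375 in PBS and 13606, 11681 and 7624 in KA. Every KA input lay above every control input, and AAV control #3 was the highest of the controls. Apoe was higher in KA by 2.19 ± 0.44 on the log2 scale against AAV control (adjusted p = 0.0324) and by 2.05 ± 0.26 against PBS (adjusted p = 3.575e-04). The call against AAV control was lost when any 1 library other than AAV control input #3 was left out (adjusted p between 0.0528 and 0.159), with log2 fold changes of 1.94 to 2.35. Without AAV control input #3 it was 2.74, with an adjusted p of 5.72e-04. Within run 1 it was 2.90, with an adjusted p of 2.162e-14.

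Markers of microglia, which also express Apoe, moved with the Apoe level in input. The 10 markers, none at 0 in a whole group, were summed as FPKM. In input the sum was 83.8 to 146 in AAV control, 100.3 to 115 in PBS and 769 to 1297 in KA. In IP it was 32.1 to 49.9 in KA against 13.4 to 27.2 in the controls. Many markers were low in IP, where 4 in AAV control, 6 in PBS and 7 in KA exceeded FPKM 1 in all 3 libraries. In the KA IP, 4 were tested against AAV control (2 passed higher, 0 lower). Against PBS 6 were tested (3 higher, 1 lower). In input 9 were tested, and all 9 passed higher in KA against each control group. Of the astrocyte markers in input, 4 of 10 passed higher in KA against AAV control and 8 of 10 against PBS, with median log2 fold changes of 0.71 and 0.84. Per unit of the microglial sum in the same library, Apoe was at 18.2 to 24.6 in AAV control input, 20.8 to 26.4 in PBS input and 9.92 to 10.5 in KA input. The part of either cell type in the Apoe level was not tested, and in these bulk samples more cells of a type and more RNA per cell cannot be told apart.

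The IP to input ratio of Apoe was lower in KA than in both control groups. The FPKM ratio in each homogenate was 17.1, 19.5 and 7.60 in AAV control, 10.8, 11.0 and 8.58 in PBS and 2.03, 2.31 and 2.52 in KA. No KA homogenate reached the lowest control value. The ratio of the astrocyte markers was also lower in KA, by a median of -1.34 (log2) against AAV control and -1.24 against PBS, and its part in the Apoe ratio was not tested. The KA effect was lower in IP than in input by 2.41 ± 0.53 on the log2 scale against AAV control (log2 difference -2.41, adjusted p = 0.0112) and by 2.21 ± 0.60 against PBS (-2.21, adjusted p = 0.0163).

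Apod showed the largest change of the members in the KA IP. Its FPKM in IP was 12.4, 16.4 and 268 in AAV control #1 to #3, 14.97, 10.4 and 44.5 in PBS, and 1239, 856 and 440.4 in KA. KA did not overlap with either control group, and the control groups overlapped with each other. AAV control #3 was far above the other 2 libraries of its group and nearer to KA #3 than to them. Against PBS the log2 fold change was 5.22 ± 0.57 with an adjusted p of 1.384e-04. Against AAV control it was 3.01 ± 1.17 with an adjusted p of 0.111, and 7 of 15 alternatives passed. Without AAV control IP #3 it was 5.96 with an adjusted p of 1.504e-04, and with the sample number as a block it was 4.78 ± 1.36 with an adjusted p of 0.0357.

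In input, Apod was at 57.5, 47.4 and 82.5 in AAV control, 49.6, 53.9 and 50.6 in PBS and 189, 163 and 123 in KA. All KA inputs were above all controls. The log2 fold change was 1.32 ± 0.26 against AAV control (adjusted p = 0.0315) and 1.60 ± 0.14 against PBS (adjusted p = 1.656e-05). Against AAV control the call was lost without any 1 of the libraries other than AAV control input #3 (adjusted p between 0.0606 and 0.166), and in the fit over all 18 libraries both calls were lost (adjusted p 0.476 and 0.242).

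Oligodendrocyte markers moved with Apod across the IP libraries. Their summed FPKM was 274, 363 and 1183 in AAV control IP #1 to #3, 410, 300.4 and 633 in PBS IP and 2790, 1927 and 1437 in KA IP, so that AAV control #3 and PBS #3 were the highest of their groups for Apod and for the marker sum alike. In input the sum was 611 to 1046 in all 3 groups. Per unit of this sum, Apod was at 0.0453, 0.0452 and 0.227 in AAV control IP, 0.0365, 0.0346 and 0.0703 in PBS IP and 0.444, 0.444 and 0.306 in KA IP. In input it was at 0.0565 to 0.0824 in AAV control, 0.0651 to 0.0828 in PBS and 0.151 to 0.189 in KA. The Apod value per unit of the markers was therefore higher in every KA library than in any control of the same kind, and the part of oligodendrocyte RNA in the Apod level of the IP was not tested.

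**Figure D3:**
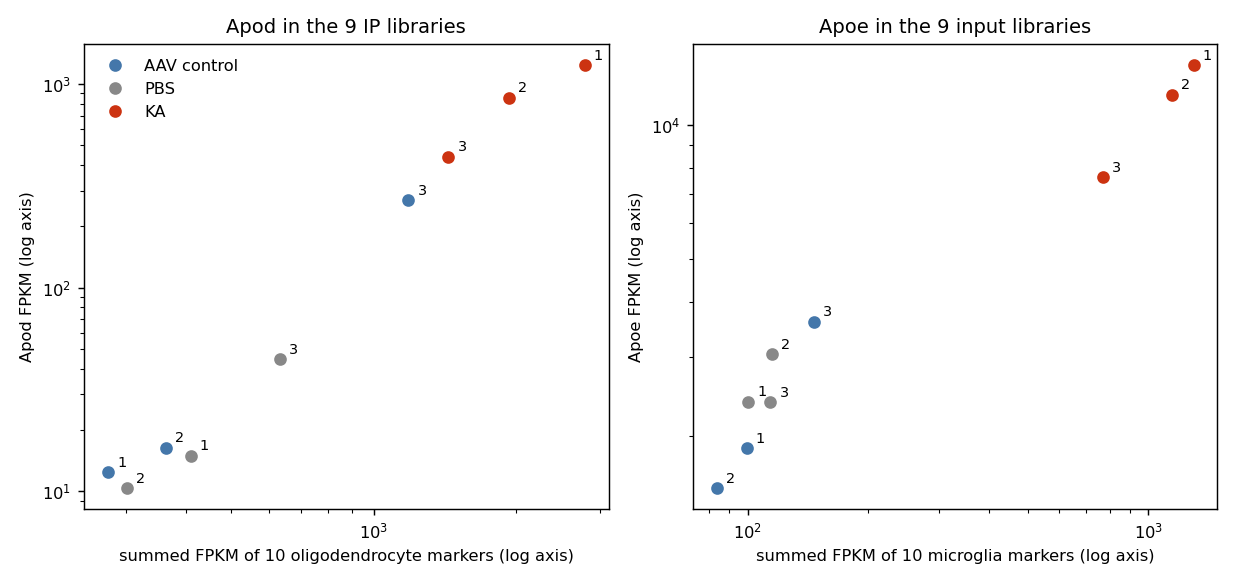
Left, Apod FPKM against the summed FPKM of 10 oligodendrocyte markers in the 9 IP libraries, and right, Apoe FPKM against the summed FPKM of 10 microglia markers in the 9 input libraries, all axes logarithmic, with the sample number beside each point. In both, the 3 KA points lie at the upper right, and AAV control #3 (Apod 268) is next to them on the left.

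The ratio of Apod changed side between the groups. It was 0.216, 0.346 and 3.25 in AAV control, 0.302, 0.193 and 0.880 in PBS and 6.55, 5.24 and 3.58 in KA. In 5 of 6 control homogenates Apod was lower in IP than in input, and AAV control #3 was the exception. Apod was lower in IP in the PBS group (log2 fold change -1.11 ± 0.33, adjusted p = 0.0132, or 0.0601 without PBS IP #1, 0.0514 with total count scaling and 0.302 in the fit over all 18 libraries) and higher in the KA group (2.61 ± 0.33, adjusted p = 6.225e-04). In AAV control it was 0.91 ± 1.12 with an adjusted p of 0.561, and the direction turned without AAV control IP #3, to -2.04 with an adjusted p of 0.00299. The change of the ratio in KA was 3.63 ± 0.56 against PBS (adjusted p = 7.227e-04) and 1.69 ± 1.29 against AAV control (adjusted p = 0.453). With the homogenate as a block the latter was 3.11 ± 0.81 with an adjusted p of 0.0111, and without AAV control IP #3 it was 4.66 with an adjusted p of 2.869e-04.

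Clu, which encodes a chaperone of the extracellular space that also forms lipoprotein particles, differed less clearly. In IP its FPKM was 1599, 1309 and 4638 in AAV control, 2784.5, 4070.2 and 2070 in PBS and 1262, 1307.5 and 1760.4 in KA. AAV control #3 was the highest of the 9. KA #1 and #2 were below AAV control #1 and #2, which were of the same run, by a small margin for #2, and all KA values were below all PBS values. The log2 fold change was -0.78 ± 0.54 against AAV control (adjusted p = 0.357) and -1.06 ± 0.47 against PBS (adjusted p = 0.101). Without AAV control IP #3 the first was 0.12 (adjusted p = 0.769), and without PBS IP #3 the second passed, at -1.32 with an adjusted p of 0.0393, as it did with total count scaling (0.0413) and in DESeq2 (0.00433).

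In input, Clu was at 99.5, 83.5 and 341 in AAV control, 170.2, 236 and 220.3 in PBS and 372, 313 and 358 in KA. The KA inputs were above the PBS inputs and above AAV control #1 and #2, and AAV control #3 lay within the KA range. Clu rose in KA against PBS by 0.73 ± 0.15 (adjusted p = 0.00514, or 0.469 in the fit over all 18 libraries). Against AAV control the change was 0.95 ± 0.54 (adjusted p = 0.422), which passed without AAV control input #3 (1.99, adjusted p = 1.242e-04) and with the sample number as a block (1.31 ± 0.35, adjusted p = 0.0483).

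The ratio of Clu was 16.1, 15.7 and 13.6 in AAV control, 16.4, 17.2 and 9.40 in PBS and 3.39, 4.17 and 4.91 in KA. AAV control #3 was close to its group here although its levels in IP and input were not. The KA ratios lay below every control. Astrocyte markers also had lower ratios in KA (7 of 10 passed against AAV control and 6 of 10 against PBS, medians -1.34 and -1.24), the part of which was not tested. The change of the Clu ratio was -1.81 ± 0.47 against PBS (adjusted p = 0.0133, or 0.126 in the fit over all 18 libraries) and -1.73 ± 0.86 against AAV control (adjusted p = 0.224). With the homogenate as a block the latter was -1.80 ± 0.25 with an adjusted p of 2.34e-04, and without AAV control input #3 it was -2.75 with an adjusted p of 0.0243.

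Abca1, the transporter that hands cholesterol and phospholipid to lipid-poor ApoE, rose in KA in both kinds of library and against both control groups. In IP its FPKM was 5.56, 5.90 and 4.399 in AAV control, 3.84, 3.83 and 4.81 in PBS and 14.7, 11.4 and 7.69 in KA. In input it was 1.84, 2.10 and 1.80 in AAV control, 1.78, 1.87 and 1.98 in PBS and 6.90, 5.83 and 5.37 in KA. KA and the controls did not overlap in IP or in input, and KA #3 was the lowest KA library in both.

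In IP, the log2 fold change of Abca1 was 1.14 ± 0.21 against AAV control (adjusted p = 0.00987) and 1.43 ± 0.21 against PBS (adjusted p = 6.833e-04). In input it was 1.65 ± 0.14 (adjusted p = 9.766e-04) and 1.67 ± 0.11 (adjusted p = 2.131e-06). It passed under all 15 alternatives against AAV control and all 13 against PBS, in IP and in input. In the KA IP the median astrocyte marker was lower (-0.74 against AAV control and -0.32 against PBS). The microglial sum was higher there, as given above for Apoe. Per unit of the microglial sum, Abca1 in IP was at 0.239 to 0.295 in KA, 0.181 to 0.440 in AAV control and 0.177 to 0.207 in PBS. In input Abca1 per unit of this sum was lower in KA, at 0.00510 to 0.00698 against 0.0123 to 0.0251 in the controls. The part of either cell type was not tested.

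The Abca1 ratio was 3.03, 2.81 and 2.44 in AAV control, 2.16, 2.05 and 2.42 in PBS and 2.13, 1.957 and 1.43 in KA. KA overlapped with PBS and lay below AAV control. Its change was -0.50 ± 0.24 against AAV control (adjusted p = 0.216, or 0.0247 with the homogenate as a block) and -0.25 ± 0.23 against PBS (adjusted p = 0.463).

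Abcg1, which passes cholesterol on to particles that already carry lipid, differed from Abca1 in that it was lower in IP than in input in every homogenate. In IP its FPKM was 1.45, 1.52 and 2.03 in AAV control, 1.80, 1.32 and 2.18 in PBS and 4.02, 3.29 and 2.43 in KA. In input it was 5.17 to 6.37 in all 9 libraries. Every KA IP was above every control IP, and the inputs of the groups overlapped.

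Abcg1 rose in the KA IP by 0.98 ± 0.24 on the log2 scale against AAV control (adjusted p = 0.0272) and by 0.89 ± 0.21 against PBS (adjusted p = 0.00767). Against AAV control the call was lost without KA IP #1 or #2 or AAV control IP #1 or #2, with an adjusted p between 0.0839 and 0.102. In input the log2 fold changes were 0.09 ± 0.12 (adjusted p = 0.784) and 0.12 ± 0.10 (adjusted p = 0.392). The neuronal marker sum was also higher in the KA IP, at 1403 to 2300 against 345 to 459 in AAV control and 329 to 592 in PBS. Of the 10 neuronal markers, 5 passed higher and 0 lower against AAV control (median log2 fold change 0.96). Against PBS, 4 passed higher and 1 lower (median 0.31). The microglial sum was higher too, with the limits given above for Apoe. Per unit of the microglial sum Abcg1 in IP was 0.0755 to 0.0806 in KA, 0.0835 to 0.113 in AAV control and 0.0714 to 0.0895 in PBS, and per unit of the neuronal sum it was 0.00105 to 0.00287 in KA against 0.00304 to 0.00588 in the controls. The part of these cell types was not tested.

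The Abcg1 ratio was 0.259, 0.254 and 0.385 in AAV control, 0.332, 0.255 and 0.386 in PBS and 0.637, 0.516 and 0.468 in KA, with no overlap of KA and the controls. It was higher in KA by 0.91 ± 0.27 against AAV control (adjusted p = 0.0429) and 0.76 ± 0.22 against PBS (adjusted p = 0.0201). Against AAV control the call was lost without any 1 of 10 of the 12 libraries (adjusted p between 0.0557 and 0.103), the exceptions being KA IP #3 and AAV control IP #3, and with total count scaling (0.0666), and held with the homogenate as a block (adjusted p = 0.00460). Against PBS it was lost without KA IP #1 (adjusted p = 0.0515) or PBS input #1 (0.0539) and with total count scaling (0.0979).

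Lcat, which esterifies cholesterol on the particles, fell in the KA IP. Its FPKM in IP was 224, 158 and 363 in AAV control, 251, 313 and 186 in PBS and 111, 80.7 and 100.4 in KA. Every KA IP was below every control IP. The log2 fold change was -1.32 ± 0.35 against AAV control (adjusted p = 0.0351) and -1.38 ± 0.28 against PBS (adjusted p = 0.00378). The first call was lost without any 1 KA IP library or AAV control IP #1 (adjusted p between 0.0645 and 0.129), and without AAV control IP #3 the fold change was -0.85 (adjusted p = 0.0195). Of the 10 astrocyte markers, 5 also fell in the KA IP against AAV control and 4 against PBS (medians -0.74 and -0.32), and 2 rose in each, and their part in the Lcat level was not tested.

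In input, Lcat was at 14.6, 10.1 and 29.2 in AAV control, 18.8, 25.1 and 24.4 in PBS and 21.1, 16.97 and 30.3 in KA, and the 3 groups overlapped. The log2 fold change was 0.33 ± 0.43 against AAV control (adjusted p = 0.767, or 0.0435 without AAV control input #3, at 0.97) and 0.01 ± 0.21 against PBS (adjusted p = 0.972). The Lcat ratio was 15.4, 15.7 and 12.4 in AAV control, 13.3, 12.5 and 7.61 in PBS and 5.26, 4.76 and 3.31 in KA, with every KA value below the controls. The ratio of 7 of 10 astrocyte markers also fell against AAV control (median -1.34) and of 6 of 10 against PBS (-1.24). The change of the Lcat ratio was -1.41 ± 0.39 against PBS (adjusted p = 0.0174, or 0.0518 without KA input #3 and 0.102 in the fit over all 18 libraries) and -1.64 ± 0.62 against AAV control (adjusted p = 0.106). With the homogenate as a block the latter had an adjusted p of 3.461e-05 at -1.65 ± 0.17, and without AAV control input #3 an adjusted p of 0.0180 at -2.26.

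Of the receptors, Lrp1, the endocytic receptor for ApoE of many brain cells, was at 18.1, 15.4 and 13.1 FPKM in AAV control IP, 18.8, 13.8 and 18.2 in PBS IP and 16.8, 15.6 and 10.3 in KA IP. The groups overlapped, and the log2 fold changes in KA were -0.08 ± 0.20 against AAV control and -0.25 ± 0.21 against PBS (adjusted p 0.817 and 0.375). In input Lrp1 was at 6.12 to 7.32 in AAV control, 6.50 to 8.36 in PBS and 8.29 to 9.42 in KA. Its log2 fold change of 0.43 ± 0.15 against AAV control had an adjusted p of 0.172, which became 0.00578 without AAV control input #3, and that of 0.25 ± 0.09 against PBS had an adjusted p of 0.0662, which became 0.0232 without KA input #3. The Lrp1 ratio was 1.79 to 2.80 in AAV control, 1.79 to 2.88 in PBS and 1.25 to 1.79 in KA, and its change in KA had adjusted p-values of 0.190 and 0.0960, which were 0.0410 and 0.0406 with the homogenate as a block (-0.52 ± 0.18 in both).

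In IP Lrp8, a reelin receptor, was at 4.36, 4.18 and 4.02 FPKM in AAV control. It was at 4.45, 4.602 and 7.09 in PBS and 4.403, 5.001 and 3.66 in KA, with PBS #3 the highest. In KA its log2 fold change in IP was 0.10 ± 0.15 against AAV control and -0.29 ± 0.19 against PBS (adjusted p 0.666 and 0.237). In input it was at 3.59, 3.58 and 3.21 in AAV control, 2.87, 3.22 and 4.28 in PBS and 4.15, 4.57 and 4.46 in KA, with a log2 fold change of 0.35 ± 0.13 against AAV control (adjusted p = 0.190). Against PBS the change was 0.35 ± 0.12, with an adjusted p of 0.0543 that became 0.0357 without PBS input #3. The Lrp8 ratio was 1.17 to 1.25 in AAV control, 1.43 to 1.66 in PBS and 0.821 to 1.10 in KA. It was lower in KA than in PBS by 0.64 ± 0.21 on the log2 scale (-0.64, adjusted p = 0.0389), a call lost with RLE size factors (adjusted p = 0.0521), total count scaling (0.134) or no FPKM filter (0.536) and also without any 1 of 8 of the 12 libraries (KA IP #1 or #3, PBS IP #2 or #3, KA input #2 or #3, PBS input #1 or #2, adjusted p between 0.0670 and 0.1004).

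Vldlr, the other reelin receptor, was lower in the KA input than in the PBS input. It was at 6.29, 5.77 and 5.06 FPKM in AAV control input, 6.77, 6.97 and 7.08 in PBS input and 4.86, 4.80 and 5.14 in KA input, so that KA did not overlap with PBS and overlapped with AAV control #3 alone. The log2 fold change was -0.50 ± 0.10 against PBS (adjusted p = 0.00549) and -0.20 ± 0.13 against AAV control (adjusted p = 0.502). The PBS inputs, all of a run of their own, also lay above every AAV control input (0.32 ± 0.11, adjusted p = 0.566). In IP Vldlr was at 3.00 to 3.65 in AAV control, 3.13 to 5.75 in PBS and 3.68 to 4.02 in KA, with log2 fold changes of 0.21 ± 0.17 and -0.17 ± 0.19 (adjusted p 0.424 and 0.494). Its ratio was below 1 in each homogenate, at 0.449 to 0.839.

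Across the members, IP against input within a group gave 6 higher members and 2 lower in AAV control (19.4% and 20.3% of 9961 genes), 6 higher and 3 lower in PBS (28.6% and 27.7% of 10401 genes) and 6 higher and 1 lower in KA (19.1% and 15.3% of 10098 genes). The members' median log2 difference was 1.37, 1.27 and 1.10, beside 0.01, 0.04 and 0.01 over all genes. Apoe, Clu, Abca1, Lcat and Lrp1 were higher in IP in all 3 groups, Lrp8 in AAV control and PBS, and Apod in KA, while Abcg1 was lower in all 3. The difference for Apoe was 3.79 ± 0.47 in AAV control, 3.52 ± 0.67 in PBS and 1.39 ± 0.33 in KA (adjusted p 7.142e-04, 7.555e-04 and 0.0124). The KA value of Apoe did not pass without KA IP #2 (adjusted p = 0.0538) or KA input #2 (0.0603). In AAV control, the call of Lrp8 (0.43 ± 0.14, adjusted p = 0.0409) was lost without any 1 library other than AAV control IP #3 (adjusted p between 0.0665 and 0.166), with total count scaling (0.212) and with no FPKM filter (0.236), and that of Vldlr (-0.58 ± 0.17, adjusted p = 0.0289) without #1 or #2 of either kind (adjusted p between 0.0971 and 0.113) and with no FPKM filter (0.0766).

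The change of the IP to input ratio in KA passed for 2 members against AAV control, Apoe lower and Abcg1 higher, beside 5.98% of 9180 genes lower and 7.18% higher. Against PBS it passed for 6, with Apoe, Clu, Lcat and Lrp8 lower and Apod and Abcg1 higher, beside 14.7% of 9305 genes lower and 10.8% higher. With the homogenate as a block, 7 passed against AAV control, all but Lrp8 and Vldlr, beside 35.8% of all genes in either direction, and 7 against PBS, with Lrp1 added, beside 37.4%. Without both libraries of AAV control homogenate 3, an alternative chosen after seeing the data, 7 also passed, all but Abca1 and Lrp8, beside 22.1% of all genes. Leaving out 1 library gave 1 to 3 members against AAV control. It left Apoe alone without any 1 of KA IP #1, KA IP #2, AAV control IP #1 or #2, the 3 KA inputs or AAV control input #1 or #2.

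**Figure D4:**
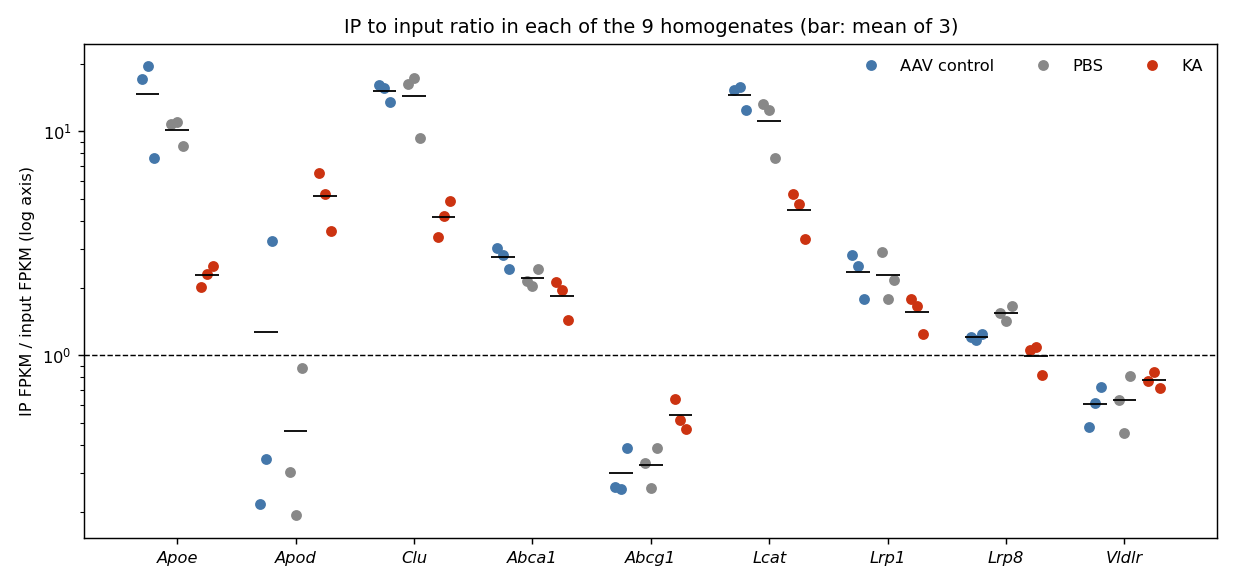
Ratio of IP to input FPKM (log axis) of each gene in each of the 9 homogenates, with the mean of 3 as a bar and a dashed line at a ratio of 1. In KA the points of Apoe, Clu, Lcat and Lrp8 are below all control points, as are those of Lrp1 by a very small margin. Those of Abcg1 are above all control points, and those of Apod above 1 in all 3.

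Other genes of lipid transport were read from 6 lists (other apolipoproteins, lipid ABC transporters, the LDL receptor family, reelin signalling, lipoprotein remodelling and cholesterol handling, and regulators), 81 genes in all. In the KA IP against AAV control, 42 were tested, and 3 passed higher and 2 lower. Over all genes tested 10.4% were higher and 9.74% lower, so neither share was above that of all genes. The median was -0.11, beside -0.02 over all genes. The 3 that rose, all in the LDL receptor list, were Lrp12 (1.56 ± 0.24, adjusted p = 0.00429), Lrp11 (1.09 ± 0.17, adjusted p = 0.00485) and Lrpap1, the chaperone that keeps ligands off the receptors during their synthesis (1.001 ± 0.27, adjusted p = 0.0339). The 2 that fell were Npc1, which exports cholesterol from lysosomes (-0.60 ± 0.15, adjusted p = 0.0277), and Abcd4, a lysosomal transporter of cobalamin (-0.55 ± 0.15, adjusted p = 0.0387).

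Against PBS, 42 genes were tested in IP, and 4 passed higher and 5 lower. Over all genes tested 18.2% were higher and 18.9% lower, so again neither share was above that of all genes. Lrpap1 (0.93), Lrp11 (0.74), Srebf1 (0.67) and Sorl1 (0.66) rose, and Abcd4 (-0.99), Src (-0.79), Gramd1b (-0.65), Npc1 (-0.56) and Lrp3 (-0.54) fell on the log2 scale, with adjusted p-values of 0.00363 to 0.0382. Srebf1 encodes SREBP-1, a transcription factor of lipid synthesis, and Gramd1b a carrier of cholesterol from the plasma membrane to the endoplasmic reticulum.

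In the KA input against AAV control, 49 genes were tested and 5 passed, all higher, beside 3.54% higher and 0.944% lower over all genes. The median was 0.07, beside -0.03 over all genes. Trem2, a lipid and lipoprotein receptor of microglia, rose most (3.60 ± 0.27, adjusted p = 6.401e-04), from 3.24, 3.35 and 4.44 FPKM in AAV control and 2.60, 3.04 and 2.74 in PBS to 59.9, 45.1 and 31.4 in KA. Npc2, the partner of Npc1 in the lysosome, rose by 1.63 ± 0.19 (adjusted p = 0.00345), Srebf1 by 1.08 ± 0.19 (adjusted p = 0.0186), Abcd2 by 0.98 ± 0.19 (adjusted p = 0.0260) and Lipa, the lysosomal acid lipase, by 0.78 ± 0.16 (adjusted p = 0.0342). Against PBS 10 of 49 passed higher and 3 lower, beside 15.5% higher and 12.2% lower over all genes. Of the 7 reelin signalling genes tested, Src in IP against PBS was the 1 that passed in the comparisons of KA with a control group.

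The genes whose log2 CPM was most like that of each member over the 18 libraries, among 9001 genes with FPKM above 1 in each, differed from member to member. They were Cst3 (Pearson's r = 0.98), Necap2 and Sat1 for Apoe, Ppp1r14a (0.97), Adssl1 and the myelin gene Mog (0.96) for Apod, Cyp2d22 (0.99), Entpd2 and Cd81 for Clu, and Vim (0.99), which encodes the intermediate filament vimentin, Cd9 and Glipr2 for Abca1. For Lcat they were Gstm1 (0.99), Ntsr2 and Hadhb, and for Lrp1 Sspn (0.98), Ak3 and Hibadh. Abcg1 was most like Cck (0.98), which encodes the neuropeptide cholecystokinin, Diras1 and Nipsnap1, and Vldlr was most like Frmpd4 (0.95), Dlg2 and Npy1r, while Lrp8 was most like Ghdc (0.90), Slc22a4 and Lactb2. Between members, r was 0.97 for Clu and Lcat, 0.93 for Apoe and Clu and 0.83 for Apoe and Abca1, and -0.88 for Abcg1 and Lcat. These correlations are over 18 libraries that differ first of all between IP and input and share homogenates in pairs, and they are given as a description.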

How the data were processed

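RNA of pooled right hippocampi was sequenced in 18 libraries, 3 IP and 3 input in each of the KA, AAV control and PBS groups, and groups were taken from the sample titles. The authors aligned reads to mm10 with STAR, and the submitters' processing notes also name featureCounts and edgeR, with no version. The authors deposited raw counts per gene symbol and FPKM values (fragments scaled to gene length and library total), 1 file of each per library. The annotation release, the strandedness and the treatment of reads that match several genes are not given in the sources used here, and the day of RNA collection of the PBS group is not stated separately. The 9 members, the marker lists and the 81 pathway genes were chosen with earlier results of these data known.

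Counts were tested in R 4.3.3 with edgeR 4.0.16 (TMM, quasi-likelihood), over genes with FPKM above 1 in all compared libraries, with Benjamini-Hochberg adjustment over all of them. SE was the fold change over the square root of F. The change of the IP to input ratio was the interaction term over 12 libraries. Genes named in the text are the members, pathway genes with up to 5 per direction by size of log2 fold change at an adjusted p under 0.05 in 3 comparisons, and the 3 genes most correlated with each member on log2 CPM (prior count 2). Coordinates came from GENCODE M21. The fit was tested on simulated data.

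Same-numbered KA and AAV control samples deviated together (residual r of 0.348, 0.529 and 0.551 in IP and 0.351, 0.444 and 0.550 in input over 9001 genes), and IP and input of a number share a homogenate by design (0.155 to 0.751). A block is therefore given for these where it changes a call. Replicates differed by at least 4.11 times counting noise, so none was a duplicate. P-values measure the spread between pools of mice, which in KA and AAV control also holds the difference between sequencing runs. All PBS samples were in a run of their own, so p-values of comparisons with PBS do not cover the difference between runs. Library totals were 7991681 to 16032180 counts, and a member's lowest count was 98. Alternatives were RLE and total count scaling, no FPKM filter, DESeq2 1.42.0, limma-voom (limma 3.58.1), 1 fit over 18 libraries, the block, the run and leaving out libraries.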

Additional observations from a re-analysis of the deposited data

Results flagged for a closer look

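The change in KA differed between IP and input libraries by the interaction term of the edgeR fit for 8 pairs of member and control group, each given here as the log2 change in IP minus that in input. Against AAV control this was -2.41 ± 0.53 (SE) for Apoe (adjusted p = 0.0112) and 0.91 ± 0.27 for Abcg1 (adjusted p = 0.0429). Against PBS it was -2.21 ± 0.60 for Apoe (adjusted p = 0.0163), 3.63 ± 0.56 for Apod (adjusted p = 7.227e-04), -1.81 ± 0.47 for Clu (adjusted p = 0.0133), 0.76 ± 0.22 for Abcg1 (adjusted p = 0.0201), -1.41 ± 0.39 for Lcat (adjusted p = 0.0174) and -0.64 ± 0.21 for Lrp8 (adjusted p = 0.0389). Apoe and Abcg1 differed against both control groups, which are compared with the same KA libraries. With 3 libraries per group, single libraries were not tested as outliers.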

How the results depend on the processing

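Of 1467 alternative values of the members' fold changes, 1322 kept direction and side of the threshold, or moved by under 1 SE where neither passed. Of the others, 66 no longer passed, 57 passed newly, 19 moved further without passing and 3 passed in the reverse direction. The 3 were Apod in IP against input of AAV control, at -2.04 without AAV control IP replicate 3 (-2.04 to 1.45 with 1 library left out), -1.70 without both libraries of homogenate 3, and -1.70 with the replicate block and without homogenate 3. Turns of direction where neither value passed are counted under the 1322 or the 19. For this Apod comparison, 10 of 15 alternatives kept the direction. The number of members passing was 3 in the KA IP against AAV control (1 to 4 with 1 library left out) and 3 in the input (6 with the run as covariate, 8 in run 1 alone, 1 to 6 with 1 library left out). Against PBS in input it was 5, and 3 in 1 fit over 18 libraries. Between PBS and AAV control it was 0, and 1 in IP with no FPKM filter and 0 to 5 in input with 1 library left out. For the ratio in KA against AAV control it was 2, and 1 with total count scaling, 5 with no FPKM filter, 7 with the replicate block, 7 without homogenate 3, 8 with both, and 1 to 3 with 1 library left out. The causes were not tested, and leaving out a library changes the number of libraries and the make-up of a group together. The numbers of KA and PBS samples, and of PBS and AAV control samples, do not pair them, and a block there changed 1 call (Lrp8 in input, KA against PBS, adjusted p = 0.0265) and 0 calls. Paired IP against input changed 0 calls. Total count scaling shifted the median of all genes in IP against input from 0.01 to -0.14 in AAV control, 0.04 to -0.08 in PBS and 0.01 to -0.21 in KA. Of 108 alternative ratios, 96 moved by under 1 SD. All genes called numbered 1960 in the KA IP against AAV control (843 to 4823 over the alternatives) and 485 in input (135 to 4781), 3647 and 3009 against PBS (up to 7028, and 1023 to 4929), 0 and 0 for PBS against AAV control (up to 1122 and 4076), 3959, 5853 and 3477 in IP against input of AAV control, PBS and KA (up to 7348, 8789 and 5753), and 1208 and 2373 for the ratio against AAV control and PBS (783 to 3607 and 1566 to 3479). FPKM of Abcg1 in IP rests on as few as 98 counts.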
